A study of Mus musculus with 15 samples.

Results

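The cholinergic system of the mouse testis was described here by 10 genes out of the 23510 rows of an expression table, chosen by name. They were the muscarinic acetylcholine receptors Chrm1, Chrm2, Chrm3, Chrm4 and Chrm5, the acetylcholine synthase gene Chat, the transporters Slc18a3 and Slc5a7, and the cholinesterases Ache and Bche. All 10 were found in the table. RNA was sequenced from 15 testis libraries of ICR mice in 5 groups of 3. Con was the control, MNC received the vector control of the M receptor lentivirus, and M1, M3 and M5 received lentivirus carrying short hairpin RNAs (shRNAs) against Chrm1, Chrm3 and Chrm5. Injection into the testis was at 5 weeks of age, with a mix of 3 shRNAs per targeted gene, and testes were taken 10 days later. All 4 injected groups share the injection and the viral vector. How the Con mice were handled is not given in the labels. No source says whether each library came from a separate mouse, so p-values measure only the spread between these samples.

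Acetylcholine is made from choline and acetyl-CoA by the enzyme that Chat encodes, is loaded into vesicles by the product of Slc18a3 and is split by acetylcholinesterase, the product of Ache. It acts through muscarinic receptors, which couple to G proteins, and through nicotinic receptors, which are ion channels built of several subunits. Among the muscarinic receptors, M1, M3 and M5 couple mainly to the Gq family, and M2 and M4 to the Gi/o family. In the testis the system is also known outside nerves, and sperm carry receptors of both kinds.

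Expression is given as FPKM, a count of mapped fragments scaled for gene length and library size, to 2 decimals, so a step of 0.01 is the smallest difference the table can hold. Levels of different genes are compared below on this per-length scale, and differences between groups are given as differences in mean log2(FPKM + 1), which understate the change of genes with low values. A row entered the tests where its mean over the 15 libraries was at least 0.1 FPKM, as for 19373 rows, and was called at an adjusted p under 0.05 (limma, Benjamini-Hochberg over all rows tested). Absolute depth is unknown. The FPKM values of a library summed to between 470243 and 513817, and at least 20619 rows per library were above 0. By correlation of log2(FPKM + 1) over the 19373 rows tested, 10 of the 15 libraries were nearest to their own group. MNC replicates 2 and 3 and M3 replicates 1 and 2 were nearest to M1. M3 replicate 3 was nearest to M5, with a median Pearson r of 0.986 against 0.984 with its own group. Markers of spermatocytes, round and elongating spermatids, Sertoli cells and Leydig cells were above 0 in every library, and the labels name testis. The sums of 6 epididymis markers were 13.4 to 32.3 FPKM in Con and 1.15 to 19.7 in M3, but at most 0.63 in MNC, M1 and M5, where Lcn5 and Lcn8 were listed at 0 in every library. In bulk tissue, fewer cells of a type and less RNA per cell cannot be told apart.

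The stretches of 250 bases before the RefSeq start sites are shown for the muscarinic receptor with the highest level, for the receptor targeted in M5, and for the highest of the other members (assembly GRCm38.p6, 5′ to 3′ on the strand of the gene). Chrm4 lies at chr2:91922189-91929835 on the plus strand, and its window at chr2:91921939-91922188. Chrm5 lies at chr2:112478733-112536361 and its window at chr2:112480818-112481067, both on the minus strand, so the window belongs to a start inside the gene's span. No source states which gene annotation was used or whether the libraries kept strand, so the values of Chrm5 are uncertain. Slc18a3 lies at chr14:32462437-32464850, inside the span of Chat and on the same minus strand, and its window at chr14:32464851-32465100. Capitals mark matches, on either strand, to the CCAAT box (CCAAT), the TATA box (TATAAA), the cyclic AMP response element (TGACGTCA) or its core (TGACG), which is contained in the full element.
Chrm4: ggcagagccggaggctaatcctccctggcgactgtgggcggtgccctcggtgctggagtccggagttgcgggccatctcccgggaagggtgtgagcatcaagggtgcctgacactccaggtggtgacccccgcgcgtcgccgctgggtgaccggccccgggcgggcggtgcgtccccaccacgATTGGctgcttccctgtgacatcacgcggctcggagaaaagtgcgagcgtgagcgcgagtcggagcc
Chrm5: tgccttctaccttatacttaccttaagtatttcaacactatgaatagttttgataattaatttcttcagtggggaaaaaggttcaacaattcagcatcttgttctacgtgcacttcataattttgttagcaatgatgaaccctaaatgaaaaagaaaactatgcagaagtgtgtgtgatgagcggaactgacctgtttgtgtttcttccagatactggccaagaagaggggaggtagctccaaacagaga
Slc18a3: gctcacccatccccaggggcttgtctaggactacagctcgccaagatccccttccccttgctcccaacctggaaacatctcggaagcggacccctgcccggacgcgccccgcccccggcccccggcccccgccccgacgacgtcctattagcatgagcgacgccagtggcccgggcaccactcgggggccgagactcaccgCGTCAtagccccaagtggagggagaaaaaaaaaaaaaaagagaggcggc

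In these windows G and C made up 70.0% of the bases before Chrm4, 66.0% before Slc18a3 and 37.6% before Chrm5. Chrm4 held 26 CpG dinucleotides, Slc18a3 21 and Chrm5 2. The Chrm4 window had 1 match, a CCAAT box that begins 67 bases before the start, and CCAAT was present in 33.8% of the 32851 mouse windows of this length. The Slc18a3 window had 1 core match, 49 bases before the start, a motif found in 17.8% of windows. The Chrm5 window matched none of the 4 motifs, of which the full response element was in 1.5% of windows and TATAAA in 12.4%. These matches describe the letters only.

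Chrm4 stood above all other members in every library. Its mean over the 15 libraries was 3.42 FPKM, higher than 54.5% of the rows of the table, and it was the only member with a mean of 1 FPKM or more. It held 79.8% to 93.5% of the summed FPKM of the 5 muscarinic receptors. Next came Slc18a3 at 0.448 FPKM, Bche at 0.289, Chrm5 at 0.277 and Chrm1 at 0.121. These 5 members passed the filter on low values. The other 5 did not: Ache was at 0.062 FPKM, Chrm3 at 0.047, Slc5a7 and Chrm2 at 0.019 each, and Chat at 0.011. Chat was listed at 0 in 5 libraries, Chrm2 in 4 and Slc5a7, the high-affinity choline transporter of cholinergic nerve endings, in 1.

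The ranges of Slc18a3, Bche and Chrm5 over the libraries overlapped one another, so their order does not stand out from the spread between libraries. Slc18a3 was far above Chat although both genes sit at one locus and are parts of the same neuronal machinery. The exons of the 2 genes share 0 bases in the GENCODE annotation. In nerve and Schwann cells, 4 of 8 marker genes had a mean of 1 FPKM or more, and their sum was 21.4 to 33.2 FPKM over the libraries.

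**Figure D1:**
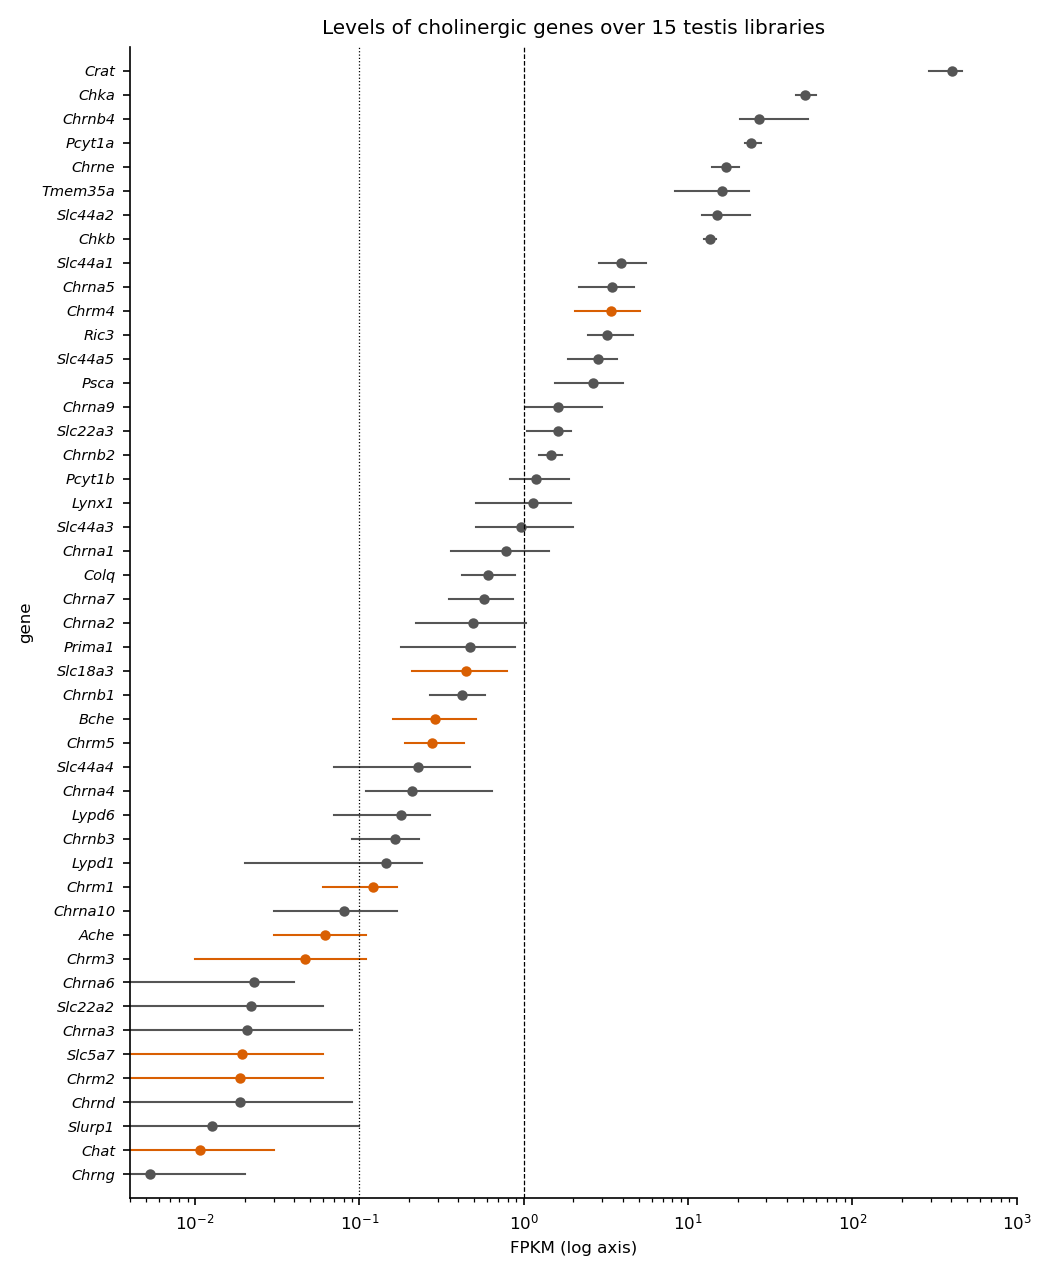
FPKM of the 10 cholinergic members (orange) and of related genes (grey) on a log axis, with the mean over 15 libraries as a point and the lowest to highest library as a line. Lines that reach the left edge include a library listed at 0, the dotted line marks 0.1 FPKM and the dashed line 1 FPKM; Chrm4 is the only orange point to the right of the dashed line, with its mean at 3.42 FPKM.

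The targeted receptors were examined first among the group comparisons, since they are what the shRNAs target. Chrm5, targeted in M5, was at 0.37, 0.22 and 0.37 FPKM in the libraries labelled M5, at 0.43, 0.23 and 0.43 in MNC and at 0.21, 0.19 and 0.21 in Con. M5 and MNC overlapped, and every M5 library was above every Con library, as for 17% of rows. The difference from MNC was -0.0452 (two-sided exact permutation test, p = 0.5, n = 3 each), where no split of 3 and 3 can give a p below 0.1. Against the other 9 injected libraries it was 0.0379 (exact permutation, p = 0.577), with a smallest possible p of 0.0045, and against Con it was 0.131 (exact permutation, p = 0.1). The sign of this difference thus depended on the control, and it also turned to 0.0106 without M5 replicate 2.

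Chrm1, targeted in M1, was at 0.14, 0.11 and 0.09 FPKM in M1, at 0.10, 0.11 and 0.11 in MNC and at 0.15, 0.09 and 0.15 in Con. The 3 groups overlapped. M1 differed from MNC by 0.0084 (exact permutation, p = 0.9, n = 3 each), from the other 9 injected libraries by -0.008 (exact permutation, p = 0.855) and from Con by -0.0212 (exact permutation, p = 0.6). Without M1 replicate 1, the difference from MNC was -0.0088. Chrm3, targeted in M3, was at 0.08, 0.04 and 0.11 FPKM in M3, at 0.05, 0.01 and 0.05 in MNC and at 0.04, 0.05 and 0.04 in Con. M3 thus held the highest values, overlapping MNC, with a difference of 0.0543 (exact permutation, p = 0.3, n = 3 each) and of 0.0529 against the other 9 injected libraries (exact permutation, p = 0.0591). A lower level of the targeted transcript was not detectable in M1, M3 or M5 at these low values, so the targeted genes do not check the group labels. The directions below are those of libraries labelled M1, M3 and M5.

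Among the members, Chrm4 was the one that passed the threshold between groups. Chrm4 was at 4.45, 5.01 and 5.10 FPKM in the MNC libraries. In the libraries labelled M5 it was at 2.24, 2.05 and 2.29 FPKM. In Con it was at 2.91, 2.75 and 3.09 FPKM. MNC was highest and M5 lowest, and no 2 of these 3 groups overlapped. In M1 the values were 3.25, 2.99 and 4.44 FPKM. In M3 they were 3.97, 4.06 and 2.67 FPKM. Both groups lay between MNC and M5 and overlapped Con. M3 replicate 3, the library nearest to M5 over the rows tested, was the lowest of the 6.

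The order of the group means was thus MNC at 4.85 ± 0.352 FPKM (SD, n = 3), M3 at 3.57 ± 0.778, M1 at 3.56 ± 0.773, Con at 2.92 ± 0.170 and M5 at 2.19 ± 0.127. The neighbours M3 and M1, and M1 and Con, did not differ beyond their spread. Over the 5 groups together, Chrm4 was the 1 member of 5 tested that the limma F test called (adjusted p = 0.0083), with 23.8% of all rows tested called. These 4617 rows became 2198 to 2992 without any 1 Con library. Without M5 replicate 2 the F test called 2 members. The summed FPKM of the 5 muscarinic receptors followed Chrm4, at 5.07 to 5.70 in MNC, 3.08 to 3.50 in Con and 2.53 to 2.87 in M5.

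**Figure D2:**
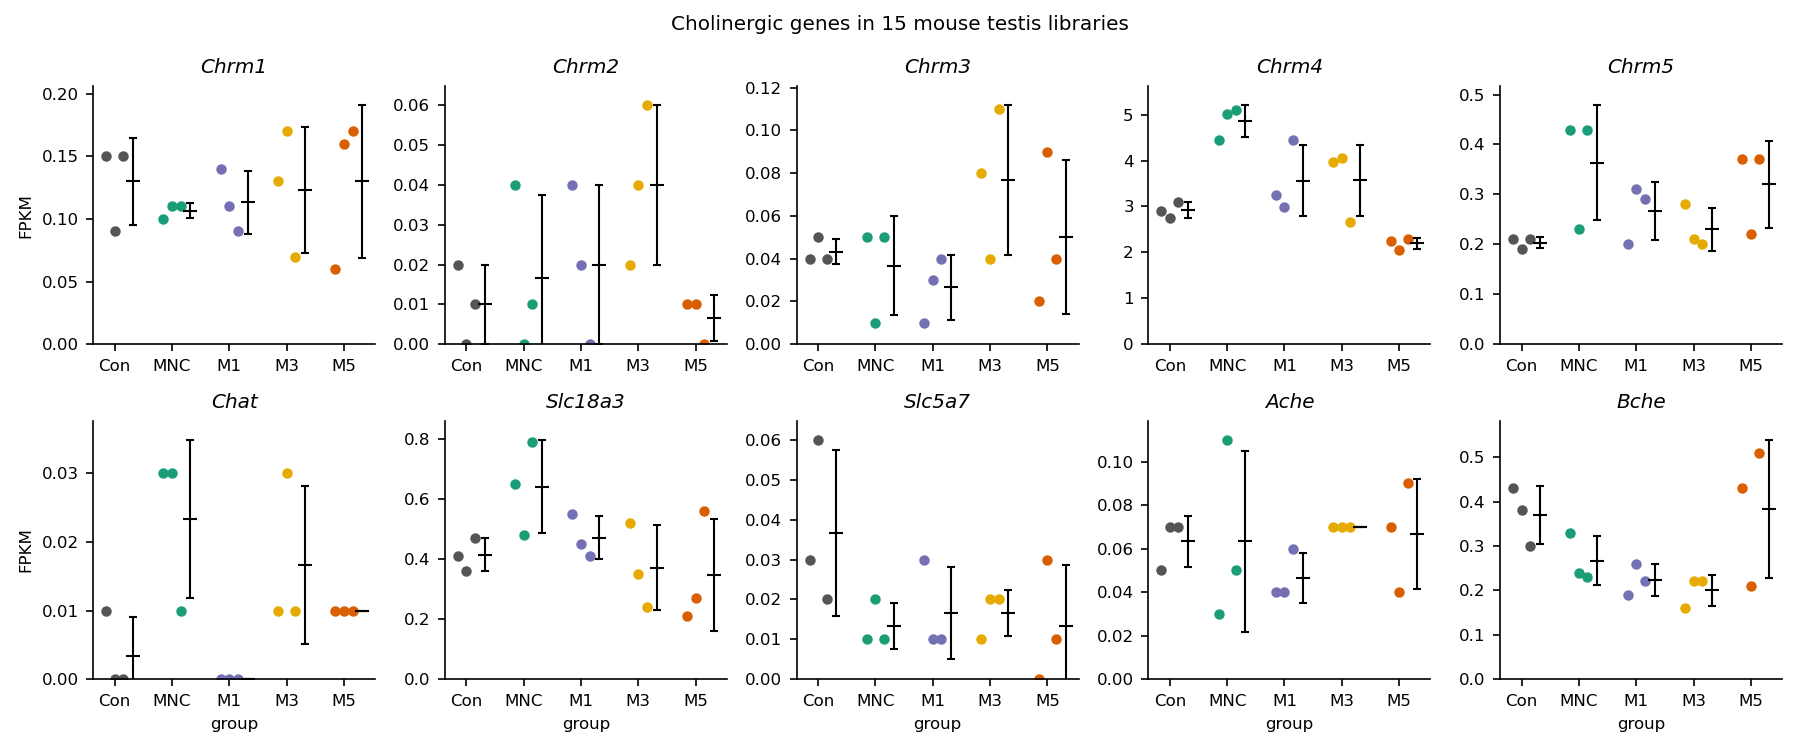
FPKM of the 10 members in each library, by group, with the mean and SD of 3 libraries beside the points and a separate axis from 0 in each panel; SD bars that would go below 0 end at 0. In Chrm4 the MNC libraries lie at 4.45 to 5.10 FPKM, the Con libraries at 2.75 to 3.09 and the M5 libraries at 2.05 to 2.29.

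M5 was compared with MNC to ask what changes with virus against Chrm5 beyond the vector. Chrm4, which encodes the Gi/o-coupled M4 receptor, was lower in M5 than in MNC by a mean ratio of 2.21, a difference of -0.87 on the log2(FPKM + 1) scale (SE 0.108, limma adjusted p = 0.0212). It was the only call among the 5 members tested, where 3.12% of all rows were called and 1.61% were called lower. These 604 rows became 581 without M5 replicate 3 and 42 to 220 without any 1 of the other 5 libraries, with 42 without M5 replicate 2 and 44 without MNC replicate 3. Groups that did not overlap, with M5 lower, were found for 13.8% of rows, and for 1 of the 5 members. The values of Slc18a3 were 0.21, 0.27 and 0.56 FPKM in M5 against 0.65, 0.48 and 0.79 in MNC. These overlapped, with a difference of -0.289 (SE 0.125, limma adjusted p = 0.253). The median difference over the 5 members was -0.0452, beside 0.0173 over all rows tested.

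The call of Chrm4 was lost when 1 of 4 libraries was left out. The adjusted p was 0.0851 without M5 replicate 1, 0.111 without M5 replicate 2, 0.0828 without MNC replicate 2 and 0.0949 without MNC replicate 3, while the difference stayed between -0.92 and -0.84 over the 6 omissions. Some cell type markers also differed between M5 and MNC. Of 5 round spermatid markers, 3 (Acrv1, Tssk1 and Acr) were lower in every M5 library than in every MNC library, as for 13.8% of rows. Their list summed to 1075 to 1095 FPKM in MNC, 933 to 979 in M5 and 900 to 928 in Con. The mean of that sum was 1.13 times higher in MNC than in M5 and 1.19 times higher than in Con, against 2.21 and 1.66 times for Chrm4. For 5 elongating spermatid markers these ratios were 0.964 and 1.62. Their sums were 19899 to 25932 FPKM in MNC, 19966 to 28339 in M5 and 9690 to 19474 in Con. Of these markers, Tnp2 and Odf1 were lower in every M5 library than in every MNC library, as for 13.8% of rows. Of 6 red blood cell markers, 5 were higher in every M5 library than in every MNC library, as for 14.3% of rows. Their list summed to 148 to 491 FPKM in M5 and 21.9 to 35.5 in MNC, and Hba-a2 and Hbb-bt were listed at 0 in some MNC libraries. Macrophage markers summed to 68.0 to 185 FPKM in M5 and 43.0 to 66.5 in MNC. Of these 5 markers only 1, Lyz2, was higher in every M5 library than in every MNC library, as for 14.3% of rows. The part of these cell types in the difference of Chrm4 was not tested.

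M1 and M3 were compared with MNC in the same way. No member was called by limma in either, beside 0.0155% of all rows in M1 and 0.00516% in M3, and 1 member, Chrm4, had an unadjusted p under 0.05 in each, as for 5.97% and 8.97% of rows. Chrm4 differed from MNC by -0.372 in M1 (SE 0.134, limma adjusted p = 0.822) and by -0.371 in M3 (SE 0.148, limma adjusted p = 0.544). In both cases all 3 libraries were below all MNC libraries, as were 7.16% of rows in M1 and 10.8% in M3. M1 replicate 3 came within 0.01 FPKM of the lowest MNC library. Bche, at 0.16, 0.22 and 0.22 FPKM in M3, was also below its MNC values of 0.33, 0.24 and 0.23. The lowest MNC and highest M3 libraries differed by 1 step of the table, and Bche was not called (limma adjusted p = 0.65).

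Slc18a3 differed from MNC by -0.155 in M1 (SE 0.0889, limma adjusted p = 0.826) and by -0.260 in M3 (SE 0.110, limma adjusted p = 0.544). Its values of 0.55, 0.45 and 0.41 FPKM in M1 and 0.52, 0.35 and 0.24 in M3 overlapped those of MNC. Chrm5 differed by -0.146 in M3 (SE 0.0817, limma adjusted p = 0.569). The MNC libraries were thus the highest of the injected ones for Chrm4 in all 3 comparisons, which share these 3 libraries.

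The knockdown groups were then compared with each other, without MNC. Chrm4 differed between M5 and M1 by -0.50 (SE 0.142, limma adjusted p = 0.113), and differed between M5 and M3 by -0.50 (SE 0.156, limma adjusted p = 0.374). The groups did not overlap in either case, with M5 lower, as for 12.4% of rows against M1 and 7.14% against M3. No member was called by limma. Of all rows, 3.8% were called against M1 and 0.031% against M3. The 736 rows called against M1 became 1243 without M5 replicate 3 and 39 to 91 without any 1 of the other 5 libraries. The 6 called against M3 became 153 without M3 replicate 3. Chrm4 was the 1 member with an unadjusted p under 0.05 in each, as for 21.1% and 13.1% of rows. Without M3 replicate 3, the difference between M5 and M3 was -0.65 (limma adjusted p = 0.0983). Between M1 and M3, 0 of the 19373 rows were called by limma and 4.71% had an unadjusted p under 0.05, none of them a member. The means of Chrm4 in these 2 groups, 3.56 and 3.57 FPKM, were nearly the same, but their spread was wide, with an SE of 0.177 for the difference.

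The vector control was compared with Con. Chrm4 was higher in MNC than in Con by 0.58 (SE 0.0828, limma adjusted p = 0.0225), a mean ratio of 1.66, and was the only call among the 5 members tested. Of all rows, 12.4% were called and 5.45% were called higher. These 2399 rows became 7 to 1354 without any 1 of the 6 libraries, with 7 without Con replicate 1, 37 without MNC replicate 3 and 59 without Con replicate 2. Slc18a3 and Chrm5 had all 3 MNC libraries above all 3 Con libraries too, which was the case for 14.2% of rows, but were not called. Slc18a3, at 0.41, 0.36 and 0.47 FPKM in Con, differed by 0.211 (SE 0.0872, limma adjusted p = 0.15). Chrm5 differed by 0.177 (SE 0.0757, limma adjusted p = 0.16). Bche went the other way, at 0.43, 0.38 and 0.30 FPKM in Con, with a difference of -0.113 (SE 0.065, limma adjusted p = 0.269).

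The call of Chrm4 between MNC and Con was lost without MNC replicate 2 (adjusted p = 0.0607), MNC replicate 3 (0.0564), Con replicate 1 (0.107) or Con replicate 2 (0.073). Of the round spermatid markers, 4 of 5 were higher in every MNC library than in every Con library, as for 14.2% of rows. Spermatocyte markers summed to 429 to 455 FPKM in MNC and 550 to 588 in Con. Of the elongating spermatid markers, with the sums given above, 2 of 5 (Prm2 and Odf1) were higher in every MNC library than in every Con library. All 6 interferon response genes were higher, with sums of 17.4 to 36.6 FPKM in MNC and 6.40 to 6.94 in Con. Their part in the difference of Chrm4 was not tested.

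Against Con, Chrm4 did not move the same way in the 4 injected groups. M5 differed from Con by -0.29 (SE 0.0953, limma adjusted p = 0.0866), with no overlap, as for 20.9% of rows with M5 lower. M1 differed from Con by 0.207 (SE 0.128, limma adjusted p = 0.269) and M3 by 0.207 (SE 0.142, limma adjusted p = 0.325), both overlapping Con. Without M5 replicate 3, Chrm4 in M5 against Con passed the threshold (limma adjusted p = 0.0473). Without any 1 of the other 5 libraries it did not (adjusted p = 0.153 to 0.239). It was called in 2 of 15 alternatives, and with the GC trend removed the difference was -0.163 (adjusted p = 0.282). No member was called in M5, M1 or M3 against Con, where 16.2%, 23.2% and 12.3% of rows were called, and in each 1 member had an unadjusted p under 0.05, as for 32.3%, 40.8% and 36.7% of rows. The numbers of rows called rested on single libraries. The 3135 rows of M5 became 415 without Con replicate 1 and 5123 without M5 replicate 3, the 4488 of M1 became 9 without Con replicate 1, and the 2387 of M3 became at most 1 without any 1 Con library. In M5 that member was Chrm4. In M1 and M3 it was Bche, the gene of butyrylcholinesterase, which was at 0.19, 0.26 and 0.22 FPKM in M1 and at 0.16, 0.22 and 0.22 in M3. All 6 of these libraries were below all Con libraries, as for 32.6% of rows in M1 and 31.3% in M3. Bche differed by -0.163 in M1 (SE 0.056, limma adjusted p = 0.0815) and by -0.190 in M3 (SE 0.057, limma adjusted p = 0.0702). After each library was centred on its median, these differences were -0.0579 (adjusted p = 0.511) and -0.0409 (adjusted p = 0.677). Under quantile normalization they were -0.163 (adjusted p = 0.077) and -0.179 (adjusted p = 0.0885). With a pseudocount of 0.1 they were -0.536 (adjusted p = 0.0772) and -0.645 (adjusted p = 0.0693). Bche was called under none of these settings. In M5 it was at 0.43, 0.21 and 0.51 FPKM, with replicate 2 apart from the other two, and M5 exceeded M3 by 0.199 (SE 0.0929, limma adjusted p = 0.402) and M1 by 0.171 (SE 0.0919, limma adjusted p = 0.347).

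Over the 12 injected libraries together, 0 of the 5 members were called against Con by limma and 0 had an unadjusted p under 0.05, while 26.1% of all rows were called and 39.4% were below 0.05 before adjustment. These 5062 rows became 2725 without Con replicate 1 and 2581 without Con replicate 2. Chrm4 differed by 0.175 (SE 0.107, limma adjusted p = 0.243), Chrm5 by 0.103 (SE 0.057, limma adjusted p = 0.198) and Bche by -0.114 (SE 0.0612, limma adjusted p = 0.184). The difference of Chrm4 was 0.04 (adjusted p = 0.827) without the MNC group. That of Bche was -0.029 (adjusted p = 0.748) after centring and -0.126 (adjusted p = 0.102) under quantile normalization. Chrm5 ran from 0.20 to 0.43 FPKM in the injected libraries, with a median of 0.285, against 0.19 to 0.21 in Con. The median difference over the 5 members was 0.035, beside -0.0701 over all rows.

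**Figure D3:**
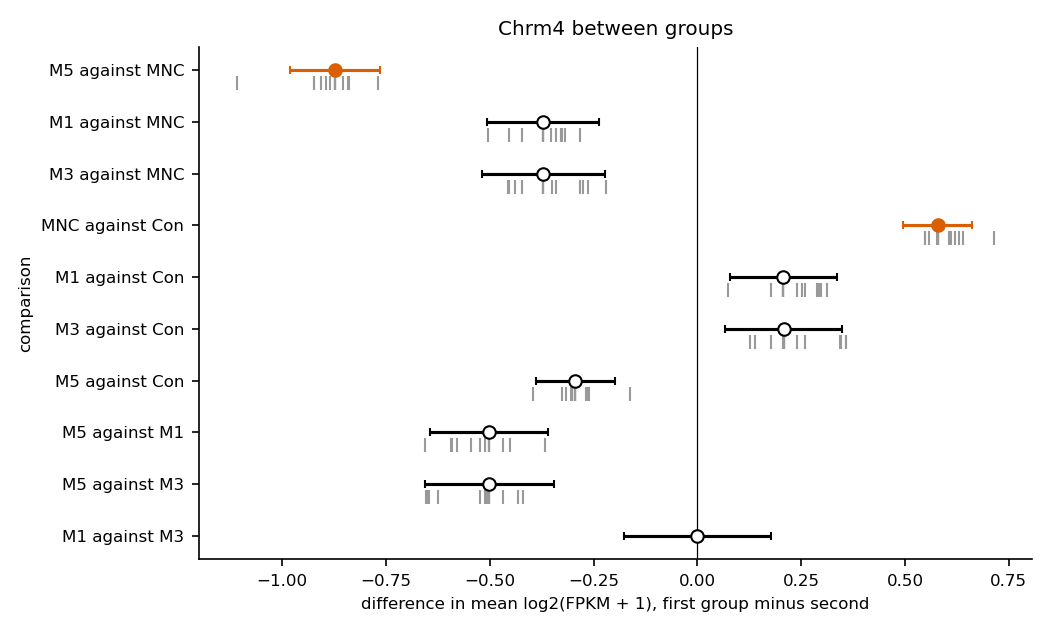
Differences of Chrm4 in mean log2(FPKM + 1) between groups, first group minus second, with SE from limma; filled orange points were called at an adjusted p under 0.05. Grey ticks under a point, drawn for every comparison but M1 against M3, show the same difference under other settings and without single libraries; those of M5 against MNC run from -1.11 to -0.77 and those of MNC against Con from 0.55 to 0.71.

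Genes with a pattern like that of Chrm4 were sought among 13612 other named rows with a mean of 1 FPKM or more, by Pearson r of log2(FPKM + 1) over the 15 libraries. The 3 nearest were Efcab15 (r = 0.953), Ap2a1 (r = 0.949), which encodes a subunit of the AP-2 clathrin adaptor, and Tekt5 (r = 0.944), which encodes a tektin of the sperm tail. Without the 2 libraries farthest from the median of Chrm4, their r was 0.932, 0.929 and 0.924. For deviations from the group means it was 0.799, 0.850 and 0.767. By Spearman's rho the nearest gene was Rnf44 (rho = 0.964), and by deviations from the group means Micall1 (r = 0.945). All points share the 15 libraries and their composition, and the values are a description. The nearest genes were far more abundant than Chrm4 and moved less. Efcab15 averaged 146 FPKM in MNC and 107 in M5, Ap2a1 116 and 88.6, and Tekt5 104 and 80.5.

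**Figure D4:**
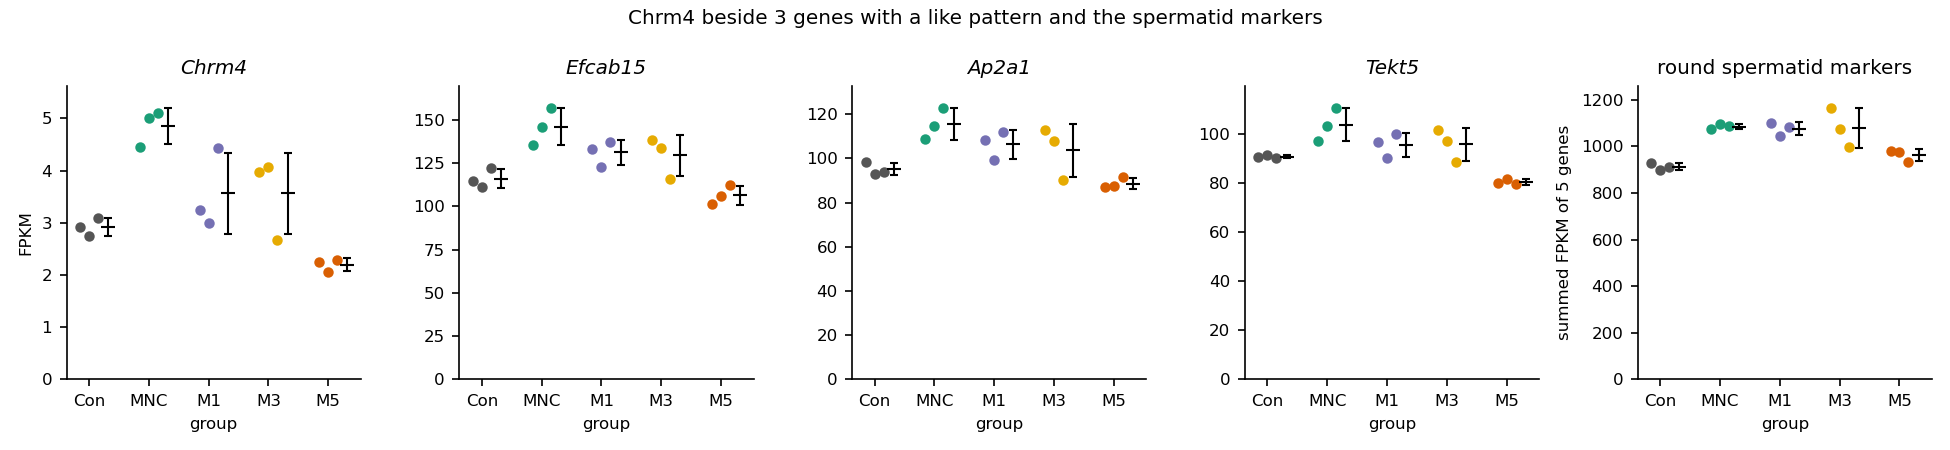
FPKM of Chrm4, of the 3 genes nearest to it by Pearson r, and the summed FPKM of 5 round spermatid markers, per library and group, with mean and SD of 3 libraries and axes from 0. MNC is high and M5 low in the first 4 panels, and the spermatid sum is lowest in Con, at 900 to 928 FPKM.

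The members were set beside 38 related genes in 5 lists, all found in the table, of which 30 passed the filter. Levels of these genes on the FPKM scale were often higher than those of the members. Among the 16 nicotinic receptor subunits, 11 passed the filter and 5 had a mean of 1 FPKM or more. Chrnb4, the beta4 subunit, was highest at 26.9 FPKM and Chrng, the fetal muscle gamma subunit, lowest at 0.0053. Chrna3 and Chrna5, neighbours of Chrnb4 in the genome and named here after their values were seen, were at 0.0207 and 3.44 FPKM. Of 9 genes for choline uptake and phosphorylation, Chka, a choline kinase, was highest at 51.7 FPKM and Slc44a4 lowest at 0.226. Carnitine acetyltransferase, encoded by Crat and able to form acetylcholine as a side reaction, was at 405 FPKM. Of the cholinesterase anchors, Colq was at 0.61 and Prima1 at 0.47 FPKM. Of the chaperones and Ly6 modulators of nicotinic receptors, Tmem35a was highest at 16.2 FPKM and Slurp1 lowest at 0.0127.

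In M5 against MNC, 1 of the 30 related genes tested was called, Chrna1, the muscle alpha1 subunit, which was higher in M5, beside 1.51% of rows called higher. Its levels were 1.23, 1.42 and 1.23 FPKM in M5 against 0.45, 0.55 and 0.74 in MNC, without overlap, as for 14.3% of rows with M5 higher. The difference was 0.54 (limma adjusted p = 0.0497), and the call was lost without any 1 of the 6 libraries, with an adjusted p of 0.0661 to 0.170. With a pseudocount of 0.1 FPKM the difference was 1.05 and not called (adjusted p = 0.0629). Skeletal muscle markers summed to 1.43 to 2.17 FPKM in M5 and 1.31 to 1.81 in MNC, and their part was not tested. In M1 and M3 against MNC, in M5 against M1 and M3, and in M1 against M3, 0 related genes were called by limma, and 1, 1, 4, 3 and 0 had an unadjusted p under 0.05, as for 5.97%, 8.97%, 21.1%, 13.1% and 4.71% of all rows.

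In MNC against Con, 3 of the 30 were called, 2 higher and 1 lower, beside 12.4% of all rows called and 5.45% called higher. Slc44a5, a choline transporter-like gene, was higher by 0.52 (limma adjusted p = 0.0314) and Chrne, the adult muscle epsilon subunit, by 0.46 (limma adjusted p = 0.0183). Chka was lower, with a difference of -0.21 (limma adjusted p = 0.0444), beside 6.94% of rows called lower. Without any 1 of the 6 libraries, Slc44a5 (adjusted p = 0.052 to 0.123) and Chka (0.0654 to 0.128) were not called. Chrne was not called without MNC replicate 3 (0.0529), Con replicate 1 (0.107) or Con replicate 2 (0.0591). Chrne contains the gene 4930544D05Rik on the opposite strand, with a mean of 113 FPKM and 0 shared exon bases. With no shared exon bases in the GENCODE annotation, reads within exons of the 2 genes can be told apart whether or not the libraries kept strand. The annotation behind these values is not given, so the values of Chrne stay uncertain to that extent.

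Over the 12 injected libraries against Con, 8 of the 30 related genes were called, 4 higher and 4 lower, a share near the 26.1% of all rows, of which 9.29% were called higher and 16.8% lower. The lower genes were Chrnb4, Chrna9, Chka and Crat, and the higher ones Chrne, Slc44a5, Chrna1 and Colq. Chrnb4 was at 36.79, 53.45 and 30.43 FPKM in Con and at 20.6 to 26.8 FPKM in the injected libraries, with a median of 23.3. Every Con library was above every injected one, as for 9.2% of rows, and the group means of MNC, M1, M3 and M5 lay between 23.0 and 23.9 FPKM. The difference was -0.71 (SE 0.119, limma adjusted p = 0.0015), a ratio of the Con mean to the injected mean of 1.71. Without Con replicate 2, the highest library, the difference was -0.49 and still called.

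Chrna9, the alpha9 subunit, was at 2.38, 3.00 and 1.83 FPKM in Con and at 1.03 to 1.72 in the injected libraries, a difference of -0.48 (limma adjusted p = 0.0076), lost without Con replicate 2 (adjusted p = 0.0657). Slc44a5 was at 2.03, 2.28 and 1.87 FPKM in Con and at 2.40 to 3.68 after injection, a difference of 0.40 (limma adjusted p = 0.0037). These 3 genes showed no overlap between Con and the injected libraries, with 5.32% of rows separated as Slc44a5 was. Crat and Chka showed none either, at 455 to 463 FPKM in Con and 295 to 445 after injection for Crat, and at 56.7 to 60.1 and 45.7 to 52.6 FPKM for Chka. Their differences were -0.24 for Crat (limma adjusted p = 0.0244) and -0.22 for Chka (limma adjusted p = 0.0017). The median of all rows moved by -0.0701 in the same comparison, and after each library was centred on its median neither gene was called (adjusted p = 0.262 for Crat and 0.226 for Chka). Crat was also not called without Con replicate 1 (adjusted p = 0.0931), 2 (0.0886) or 3 (0.0654).

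Chrne, Chrna1 and Colq were higher in the injected libraries by 0.27, 0.32 and 0.21 on the log2 scale, with overlap. Chrna1 lost its call without any 1 of the 3 Con libraries, MNC replicate 3, M1 replicates 1 or 3, or M5 replicate 2, with adjusted p values of 0.0517 to 0.151. Colq lost it without any 1 of the 3 Con libraries, MNC replicates 1 or 2, M1 replicate 2, M3 replicates 1 or 3, or M5 replicate 1, with adjusted p values of 0.0537 to 0.138. The number of related genes called was 5 without Con replicate 1, 4 without Con replicate 2 and 5 without Con replicate 3. The mean sum of the epididymis markers, with the sums given above, was 8.1 times as high in Con as in the injected libraries. M3 replicate 1 summed to 19.7 FPKM, above Con replicates 2 and 3 at 13.6 and 13.4. Of the 6 markers, 0 were lower in every injected library than in every Con library. Spermatocyte markers summed to 550 to 588 FPKM in Con and 421 to 503 after injection. Of these 5 markers 1, Piwil1, was lower in every injected library than in every Con library, as for 9.2% of rows. Sycp1 was higher in every M5 library than in every Con library, as for 17% of rows. The part of these markers in the differences was not tested.

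**Figure D5:**
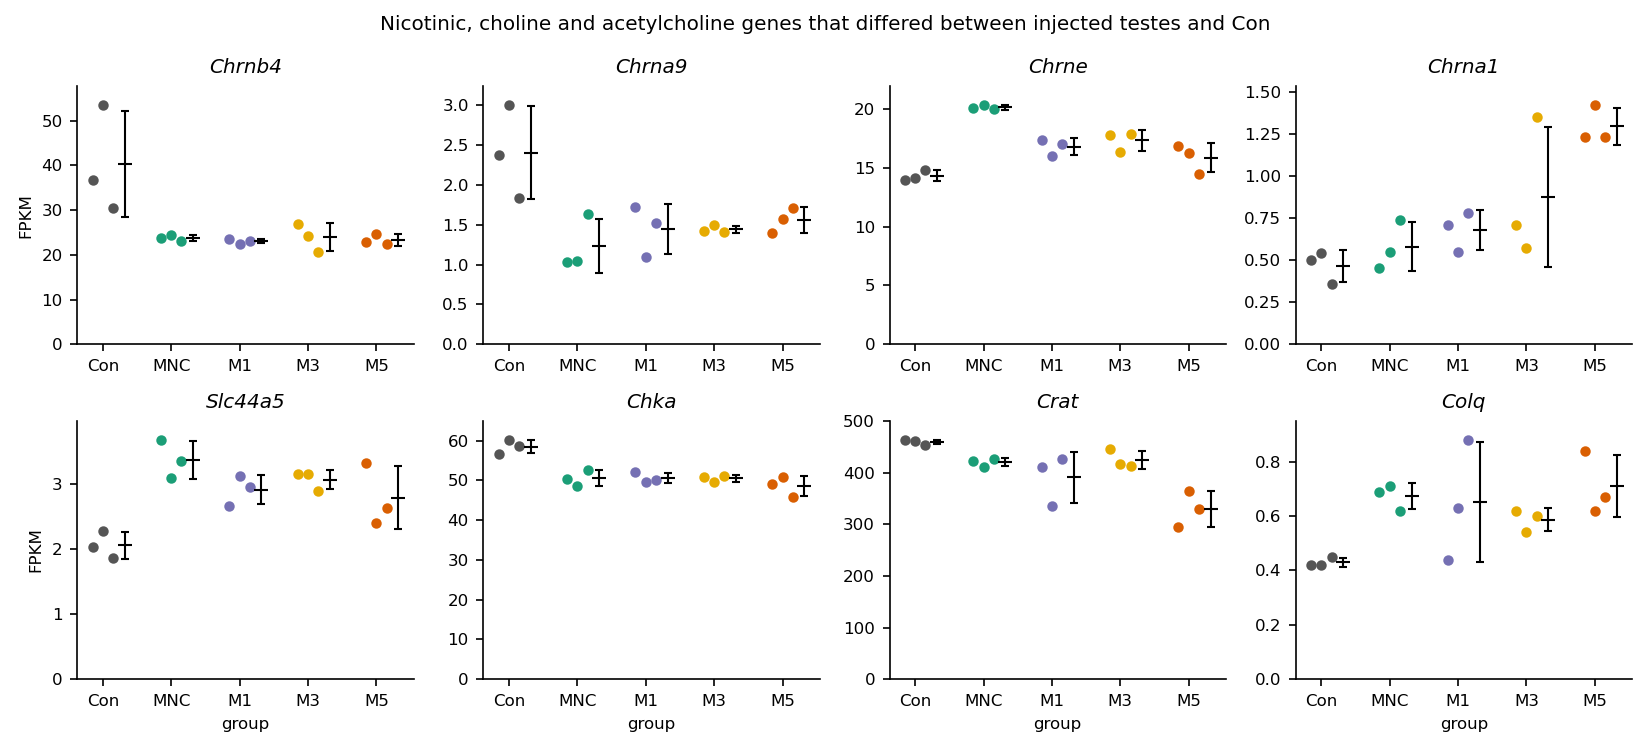
FPKM of the 8 related genes called between the 12 injected libraries and Con, per library, with mean and SD of 3 libraries and axes from 0. Con is highest in Chrnb4, Chrna9, Chka and Crat, for example at 30.4 to 53.5 FPKM of Chrnb4 against 20.6 to 26.8 in the injected libraries.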

How the data were processed

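RNA from 15 mouse testis libraries (5 groups of 3) was used as 1 deposited table. Poly(A) libraries were run on an Illumina HiSeq and aligned with SOAPaligner to a set of reference genes, according to the study. FPKM values for 23510 rows were computed and deposited by the authors. The submitters' processing notes name the genome build mm10, and the gene annotation and library strand are not given in the sources used here. Groups and replicate numbers came from the sample titles. For M5 replicate 2 the title and the description disagree on the column, and the title was followed. The extraction text speaks of sperm, the other labels of testis.

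Entrez IDs were matched to RefSeq (21143 rows, 89.9%). Values were tested as log2(FPKM + 1), a pseudocount of 1, with limma 3.58.1 in R 4.3.3 (lmFit, eBayes with trend), 2 groups per fit except for the F test and for the injected libraries against Con, on 19373 rows with a mean of at least 0.1 FPKM. Benjamini-Hochberg adjustment ran over all rows and tests were two-sided. The study's own test models counts, which were not used here. Targeted genes were compared by exact permutation. Depth could not be read from the table, so precision rests on the spread of 3 libraries and on the step of 0.01 FPKM.

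Alternatives were a pseudocount of 0.1, a filter at 1 FPKM or none, centring, quantile normalization, no trend, all 5 groups in one fit, a replicate block, other controls and single libraries left out. Removal of the trend with GC content (known for 88.1% of rows, GENCODE M21) and the comparisons of M1, M3 and M5 with Con were chosen after seeing the data. The 10 genes and the lists were chosen with earlier results of these data known. Named were all 10 genes, related genes that were called or were highest or lowest of their list (1 of these is not reported here), and the 3 genes most like each member with a mean of at least 1 FPKM. Python 3.11.15 and pandas 2.3.3 were also used.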

Additional observations from a re-analysis of the deposited data

Results flagged for a closer look

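Chrm4 moved in opposite directions from Con in 2 of the injected groups. Every MNC library was above every Con library (difference in mean log2(FPKM + 1) of 0.579), as for 14.2% of rows. Every M5 library was below every Con library (difference of -0.294), as for 20.9% of rows. The first difference was called (limma adjusted p = 0.0225) and the second was not (limma adjusted p = 0.0866). These comparisons share the 3 Con libraries. The difference between the groups is that of M5 against MNC, which limma called (adjusted p = 0.0212). The gap runs from 2.29 FPKM, the highest M5 library, to 4.45 FPKM, the lowest MNC library. Groups of 3 libraries were not searched for single outlying samples.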

How the results depend on the processing

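Chrm4 in M5 against MNC kept its direction under all 15 alternatives (-1.11 to -0.77) and was called in 10. Chrm4 in MNC against Con kept its direction under all 15 (0.55 to 0.71) and was called in 10. For 37 differences of single genes there were 636 recomputed values. Of these, 558 stayed on the same side of the threshold, 73 lost a call, 4 gained one and 1 changed sign. The 558 include differences never called, and only called ones could lose a call. Chrna1 in M5 against MNC lost its call in 13 of 14 alternatives and Chka in MNC against Con in 11 of 15. Chrnb4 in the injected libraries against Con lost it in 0 of 24. Chrm5 in M5 against M3 changed sign, from 0.1003 to -0.0227 after centring, which shifts all genes of a library by the same amount.

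The replicate numbers did not pair the libraries. Of 30 same-numbered pairs, 4 had correlated deviations from the group means with r over 0.1 (range -0.372 to 0.161). With the replicate number as a block, 0 members and 0 related genes were called in M5 against MNC and 0 and 0 in MNC against Con (Chrm4 adjusted p = 0.115 and 0.0785). In M5, M1 and M3 against Con, the block took the related genes called from 4, 7 and 3 to 0 in each, and it changed the number of members called in no other comparison.

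In M5 against MNC, where 1 related gene was called, the number was 0 with a pseudocount of 0.1, no filter, centring, quantile normalization, GC trend removed and no trend. It was 3 with all 5 groups in one fit. With the filter at 1 FPKM it was 0 of 18 tested, and Chrna1 was not among the genes tested. In MNC against Con, 5 related genes were called with the filter at 1 FPKM and 5 with all 5 groups in one fit. In M5 against M1, 1 member was called with all 5 groups in one fit and 1 related gene under quantile normalization. In M5 against Con, 1 member was called without trend. In the injected libraries against Con, 1 member was called with the GC trend removed, Chrm5 (0.179, adjusted p = 0.0334). The difference of Chrm5 between M5 and its control became 0.131 with Con and 0.0379 with the other 9 injected libraries, and that of Chrm1 in M1 became -0.0212 and -0.008.

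Without single libraries, called members ranged from 0 to 1 in M5 against MNC, in MNC against Con and in M5 against Con, and from 1 to 2 in the F test. Called related genes were 0 in M5 against MNC, 0 to 1 in MNC against Con and 4 to 11 in the injected libraries against Con. Chrm5 in M5 against MNC ranged from -0.118 to 0.0106, and Chrm1 in M1 against MNC from -0.0088 to 0.0236.

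With 3 libraries a group and 2 decimals, Chrm1, Chrm2, Chrm3, Chat, Slc5a7 and Ache lay so near 0 that a change within the spread of their libraries was not detectable.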
